A study of Homo sapiens with 4 samples.

Results

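Antisense RNAs named after a host gene were examined in A549 cells, a human lung adenocarcinoma line, that had received the synthetic glucocorticoid dexamethasone. A gene was taken as a member when its symbol ended in -AS and a number and when its reads, summed over all its transcripts and over the 4 libraries, reached 40. Of 34578 genes listed, 841 had such a symbol, and 215 of these reached 40 reads, while 356 had fewer and 270 had none. The host is the gene whose symbol stands before -AS, and 206 hosts were listed. The members were thus selected on one measured value, the total of 40 reads, which does not compare the groups. CFLAR-AS1, SERTAD4-AS1 and ZNF32-AS2 stood at 40 reads. PRKG1-AS1, HOXA-AS4 and HOXC-AS5 stood just under it at 39, 38 and 38 reads.

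Cells grown in F12K medium received either 100 nM dexamethasone (dex) or its vehicle, 0.02% ethanol by volume (etoh), for 3 h, with 2 libraries in each group. Libraries were made from messenger RNA, and the series belongs to a study of the sites that the glucocorticoid receptor binds in these cells. Nothing in the labels states that the 2 libraries of a group are separate cultures, and p-values here cover only how far these libraries differ, which can be technical. No allele, knockdown or other agent is named for either group.

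An antisense RNA is transcribed from the DNA strand opposite to a named gene. Some start beside the promoter of the host and run away from it, some run into its 3′ end, and some lie inside it. Members of this class are known to act on the chromatin, splicing or stability of neighbouring transcripts, on microRNAs, or as precursors of small nucleolar RNAs, and for most of them no function is known. A read that falls where exons of both strands overlap can be placed on the right strand only if the library kept strand, and the sources used here do not give whether counting used strand. Reads of an antisense RNA and of its host cannot be told apart over such bases.

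Depth ranged from 9764159 to 11887526 aligned reads per library, and 17.2% to 18.7% of all reads were unaligned. Members held between 0.198% and 0.207% of the aligned reads. A floor of 3 reads was 0.252 to 0.307 CPM, which are reads scaled to 1000000 aligned reads, and intervals and floors cover counting error only. Of the 15 genes listed as induced by glucocorticoids, 14 could be tested and all 14 were higher in dex, with FKBP5 at a log2 fold change of 3.38 ± 0.11 (SE), while NR3C1, the receptor itself, fell by 0.62 on the log2 scale. The epithelial keratins KRT8, KRT18 and KRT7 were abundant, but the lung lineage genes NKX2-1, SFTPB and SFTPC were at or under 4 reads in every library. The summed CPM of the 8 epithelial markers was 4230 to 4903 in etoh and 7345 to 8507 in dex. Most of that sum was keratin, with log2 fold changes of 1.03 for KRT8, 0.68 for KRT18 and 0.66 for KRT7. EPCAM, on the same list, had -0.22 ± 0.20 (SE, edgeR adjusted p = 0.556). CDH1, also on it, had 0.15 ± 0.12 (SE, edgeR adjusted p = 0.504). Fibroblast markers summed to at most 22.4 CPM, leukocyte markers to at most 4.48 CPM and endothelial markers to at most 1.02 CPM, with COL1A2, CD3E and VWF at 0 reads throughout. Whether these marker levels play a part in the results below was not tested. In bulk RNA, fewer cells of a type and less RNA per cell cannot be told apart.

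Most members were scarce. Their total over the 4 libraries had a median of 105 reads, quartiles of 60.5 and 288 reads and a maximum of 13250 reads. In etoh, 181 of the 215 members lay under 10 CPM and 4 reached 100 CPM. These 4, FGD5-AS1, C17orf76-AS1, OIP5-AS1 and TPT1-AS1, held 38.4% of all member reads. By annotation on GRCh38, 211 members were found, of which 148 are classed as antisense, 28 as processed transcripts, 24 as long intergenic RNAs and 6 as protein coding. The last class includes MMP24-AS1, whose name there is MMP24OS.

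The members fell into 4 main positions relative to their hosts. In 75 the starts of the antisense RNA and the host lay within 1000 bases of each other on opposite strands, called head to head here. In 46 the 3′ ends overlapped (tail to tail), 39 lay inside the host, and 43 overlapped it in another way. FOXD2-AS1 neither overlapped its host nor started within that distance of it, 7 had no host by that name in the annotation, and 4 were not found in it. Of the head-to-head members 42 overlapped the host and 33 did not. All 16 members that carry a name ending in -DT in the newer annotation, which stands for divergent transcript, were head to head. A median of 11.1% of a member's exonic bases lay within exons of genes on the opposite strand, 40 members had no such base, and 155 shared exonic bases with the host itself. Transcripts that shared bases with an exon on the opposite strand held 60.8% of all member reads, and transcripts that shared none held 37.7%.

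In the 6 pairs in which the counts of both the antisense RNA and the host changed, exonic bases are shared in the 3′ UTR of the host. For USP3 this is the 3′ UTR of the transcript used, whose coding sequence ends far upstream, at -60825 bases from its 3′ end. Other USP3 transcripts were not looked up for this. The middle 30 bases of the longest shared stretch of the most abundant antisense transcript are printed for each pair. They show what a read from there can and cannot tell. Each is written 5′ to 3′ from the reference genome, GRCh38. All 30 bases are exonic in both genes, so none is set in capitals. For the first 2 pairs both strands are given, each the reverse complement of the other, since a read of either strand is a read of both genes unless strand is known.
PXN-AS1, exon 4, plus strand of chr12:120211206-120211235: aacagataaagttcagaattctaggcccaa
PXN, exon 12, minus strand of the same bases: ttgggcctagaattctgaactttatctgtt
SLC7A11-AS1, exon 2, plus strand of chr4:138169047-138169076: tactatattagttattttaaacagtattca
SLC7A11, exon 12, minus strand of the same bases: tgaatactgtttaaaataactaatatagta
MMP24-AS1, exon 3, minus strand of chr20:35276665-35276694: tgccaggagccaatggggagcctggcggga
EPB41L4A-AS1, exon 3, plus strand of chr5:112163433-112163462: ggtggtagaggaagagggcctagggtctga
USP3-AS1, exon 3, minus strand of chr15:63591188-63591217: ggcagttgtgtcgctcttcacaataaggaa
LIMD1-AS1, exon 2, minus strand of chr3:45679542-45679571: gaaaacccagaagggctattcattctaaat

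**Figure D1:**
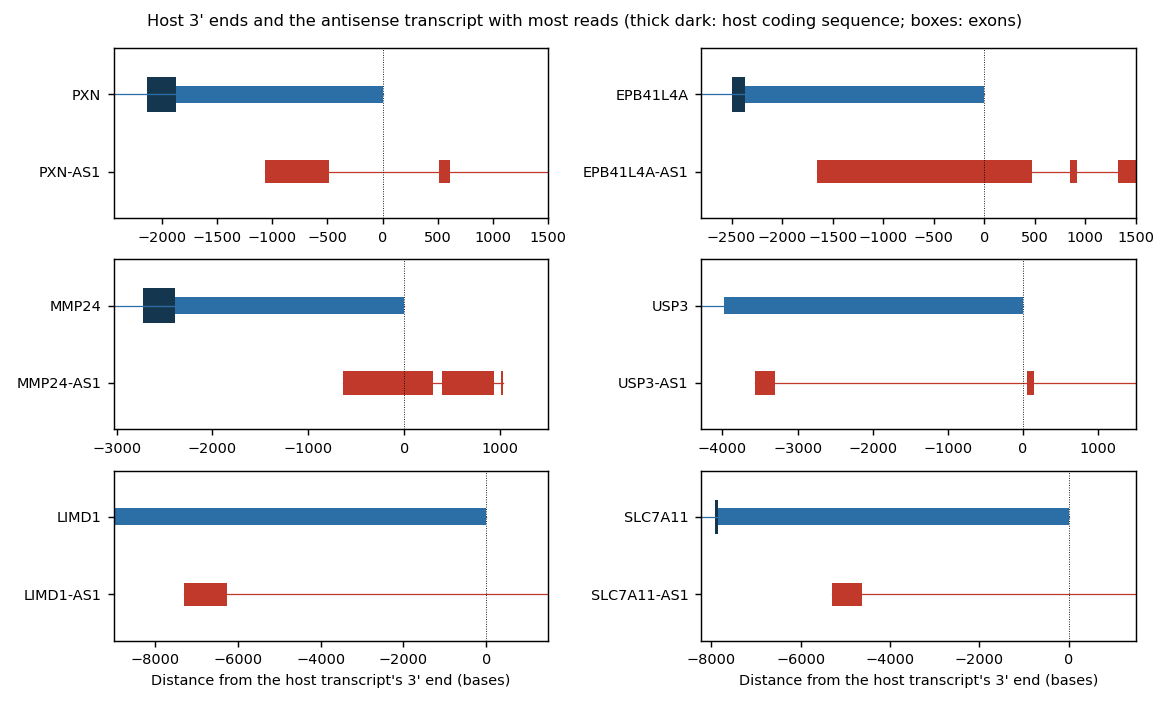
Exons of the host transcript (blue, coding sequence dark and taller) and of the antisense transcript with the most reads (red) in the 6 pairs, plotted by distance in bases from the 3′ end of the host transcript, which is at 0. In each pair an antisense exon overlaps the 3′ UTR of the host transcript drawn. In EPB41L4A-AS1 and MMP24-AS1 that exon runs on past the end of the host transcript drawn. The coding sequence of the USP3 transcript drawn ends at -60825 bases.

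Few antisense RNAs showed a difference in counts between dex and etoh. Counts were tested for dex against etoh with edgeR's quasi-likelihood test, and a gene was called when its p-value, adjusted by Benjamini-Hochberg over all 14766 tested genes, was under 0.05. Of the 213 members that could be tested, 8 were called, or 3.76%, where 11.4% of all tested genes were called. KIF9-AS1 and STX18-AS1 did not pass the filter on low counts. PXN-AS1, LIPE-AS1, MMP24-AS1 and EPB41L4A-AS1 were higher in dex, and SLC7A11-AS1, USP3-AS1, LIMD1-AS1 and HOXA-AS2 were lower. Among all tested genes 6.99% were called higher and 4.43% lower. The median log2 fold change of the tested members was -0.06, with 84 above 0 and 129 below, against -0.003 over all genes. A further 17 members had an unadjusted p under 0.05 without being called, 5 of them higher and 12 lower. With the called ones, 25 of the 213 tested members had such a p, against 3474 of the 14766 tested genes.

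The share of members called went with their abundance. Of the 139 tested members with under 200 reads in total none was called, where 5.71% of all genes of that abundance were. Of the 60 members with 200 to under 1000 reads 5 were called, where 10.3% of all genes were, and of the 14 with 1000 or more reads 3 were called, where 15.3% of all genes were. The median SE of the log2 fold change of members was 0.40, 0.21 and 0.12 in these 3 bands. In the lowest band the SE ran from 0.25 to 0.57. Of the 139 members in that band 8 had an unadjusted p under 0.05, against 518 of all 3659 tested genes of that abundance. By limma-voom the same 8 members were called as by edgeR, and by DESeq2 4 of them.

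The share called was larger among the hosts, a difference that was not tested. Of 189 hosts tested 29 were called, 15 higher and 14 lower, which is 15.3%, against 11.4% of all genes. Among all genes with 1000 or more reads the share called was also 15.3%. Hosts were not split by abundance, so their share cannot be read as a trait of hosts. The 25 members on a list of antisense RNAs with described functions included 3 of the called ones, PXN-AS1, SLC7A11-AS1 and HOXA-AS2. The 82 tested genes with LINC symbols, long intergenic RNAs that have no host in their name, included 3 that were called.

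PXN-AS1 had the smallest p-value of the members. It lies at chr12:120201291-120213138 on the plus strand, tail to tail with PXN, which encodes paxillin, a scaffold protein of focal adhesions. PXN-AS1 stood at 111 and 90.9 CPM in the dex libraries and at 53.1 and 56.4 CPM in the etoh libraries. Both dex libraries lay above both etoh libraries. The log2 fold change was 0.90 ± 0.12 (SE, edgeR adjusted p = 7.2e-06). PXN stood at 381 and 358 CPM in dex and at 169 and 186 CPM in etoh, again without overlap of the groups, with a log2 fold change of 1.07 ± 0.10 (edgeR adjusted p = 3.9e-08). The counts of the antisense RNA and of the host thus changed in the same direction. Without strand, they do not show whether the antisense RNA itself changed.

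The reads of PXN-AS1 lay almost wholly on transcripts that overlap PXN exons. Transcript 005, of which 583 of 827 bases are exonic in PXN, had 764 and 711 reads in dex and 389 and 446 in etoh. The single transcript with no shared base, 004, had 5 and 6 reads in dex and 4 and 4 in etoh, too few to test. In all, 99.4% of PXN-AS1 reads were on sharing transcripts. On the side of the host, the 5 PXN transcripts that share no exonic base with another gene stood at 19.7 and 15.9 CPM in dex and at 11.3 and 10.01 CPM in etoh, and their sum had a log2 fold change of 0.76 (edgeR adjusted p = 0.00448). These host transcripts can still share exons with the other PXN transcripts, and they held 5.17% of PXN reads.

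Counts of SLC7A11-AS1 fell together with those of SLC7A11, which encodes the transport subunit of the cystine/glutamate exchanger that feeds glutathione synthesis. The antisense RNA lies at chr4:138057464-138178177 on the plus strand, tail to tail with its host, and shares 865 exonic bases with it. SLC7A11-AS1 stood at 15.6 and 20.5 CPM in dex and at 38.8 and 35.9 CPM in etoh. Both etoh libraries lay well above both dex libraries. The log2 fold change was -1.03 ± 0.14 (SE, edgeR adjusted p = 2.0e-05). SLC7A11 stood at 341 and 379 CPM in dex and at 677 and 650 CPM in etoh, with a log2 fold change of -0.86 ± 0.10 (edgeR adjusted p = 9.4e-07).

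Every read of SLC7A11-AS1 was on a transcript that shares bases with an opposite-strand exon. The shortest of the abundant forms, transcript 004, has 691 of its 764 bases within SLC7A11 exons and had 86 and 131 reads in dex and 218 and 216 in etoh. Transcript 001, of which 276 of 4654 bases lie in SLC7A11 exons, had 59 and 87 reads in dex and 141 and 181 in etoh. The counts of the transcript with the smaller shared part thus differed between the groups in the same direction. Where on transcript 001 the reads lie is not known, and they can come from its 276 shared bases. Its counts therefore do not show a change outside the overlap. The 1 SLC7A11 transcript that shares no exonic base stood at 17.9 and 14.2 CPM in dex and at 25.9 and 28.3 CPM in etoh. Its log2 fold change was -0.74 (edgeR adjusted p = 0.00157). This host transcript can still share exons with the other SLC7A11 transcript, and it held 4.21% of SLC7A11 reads.

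**Figure D2:**
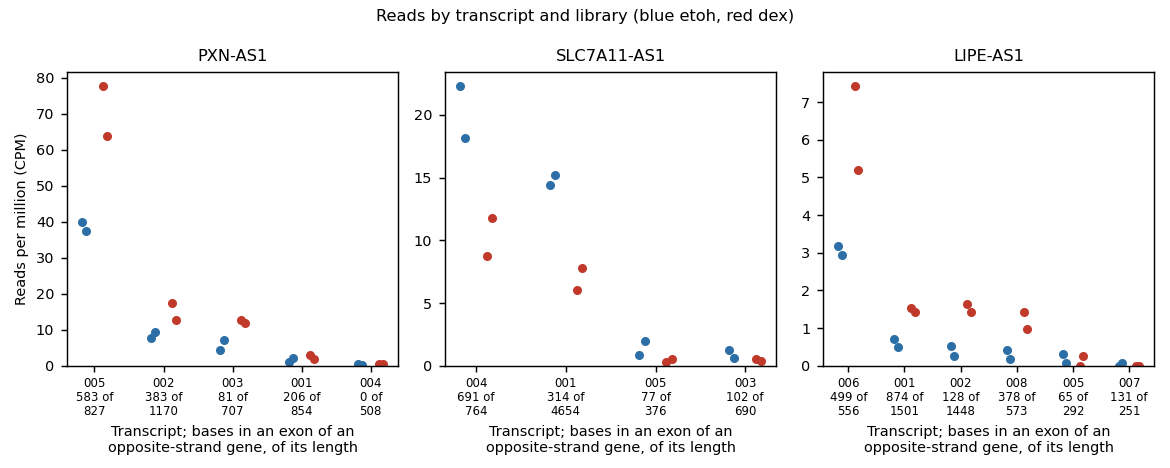
CPM of each transcript of PXN-AS1, SLC7A11-AS1 and LIPE-AS1 in the 4 libraries (blue etoh, red dex), with the transcript number, the bases it shares with exons of opposite-strand genes and its length on the horizontal axis. The most abundant transcript of each is one with a large shared part, and its dex and etoh libraries do not overlap.

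LIPE-AS1 was the only called member whose tested host was not called. LIPE encodes hormone-sensitive lipase, which releases fatty acids from stored fat. LIPE-AS1 spans chr19:42397128-42652355 on the plus strand and stood at 12.0 and 9.34 CPM in dex and at 5.12 and 4.04 CPM in etoh. The groups did not overlap, and the log2 fold change was 1.24 ± 0.23 (SE, edgeR adjusted p = 4.8e-04), the largest of the 8 in size. LIPE was close to the floor, with 0.407 and 1.08 CPM in dex and 1.33 and 0.337 CPM in etoh, and its log2 fold change of -0.04 ± 0.62 (edgeR adjusted p = 0.979) leaves a change of either sign undetectable at this depth.

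Few reads of LIPE-AS1 were on transcripts that share bases with LIPE. Of its 8 listed transcripts 6 had reads, and among these only 005 and 007, which share 65 and 131 bases with LIPE, overlap an exon of it. They had 7 reads and 1 read over the 4 libraries. Transcript 006, with 197 reads, shares 499 of its 556 bases with the opposite-strand gene AC011497.2 and none with LIPE. Transcript 006 had 73 and 58 reads in dex and 31 and 35 in etoh. The level of AC011497.2 was not looked up, and reads over the bases shared with it cannot be assigned to one gene. CEACAM1, a cell adhesion molecule on the opposite strand that shares exonic bases with transcript 001, stood at 2.24 and 1.53 CPM in dex and at 1.43 and 1.77 CPM in etoh, and was not called (log2 fold change 0.23 ± 0.38, SE, edgeR adjusted p = 0.78). CEACAM1 was looked up because its exons overlap, after the values of LIPE-AS1 were known.

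Counts of MMP24-AS1 rose with those of MMP24, a matrix metalloproteinase anchored in the cell membrane. The antisense RNA, at chr20:35201745-35278131 on the minus strand, stood at 46.0 and 37.3 CPM in dex and at 21.3 and 32.6 CPM in etoh. The dex libraries were the higher ones, but etoh replicate 2 lay close to dex replicate 2. The log2 fold change was 0.64 ± 0.16 (SE, edgeR adjusted p = 0.00853), and without etoh replicate 1 it was 0.39 and no longer called (edgeR adjusted p = 0.162). MMP24 stood at 80.7 and 76.8 CPM in dex and at 46.0 and 46.4 CPM in etoh, with a log2 fold change of 0.79 ± 0.11 (edgeR adjusted p = 1.8e-05).

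Transcripts of MMP24-AS1 that overlap an opposite-strand exon held 87.3% of its reads and stood at 41.1 and 32.4 CPM in dex and at 17.3 and 28.9 CPM in etoh. Transcripts that share none stood at 4.88 and 4.94 CPM in dex and at 3.99 and 3.70 CPM in etoh. Both dex libraries were above both etoh libraries in the transcripts without overlap too, by less. With every overlapping transcript left out the log2 fold change of MMP24-AS1 was 0.35 and was not called (edgeR adjusted p = 0.467).

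EPB41L4A-AS1, a precursor of a small nucleolar RNA, lies at chr5:112160526-112164276 on the plus strand, inside EPB41L4A, which encodes a FERM-domain protein. EPB41L4A-AS1 stood at 11.2 and 10.7 CPM in dex and at 6.66 and 6.31 CPM in etoh. The libraries of each group were close together and the groups were apart, with a log2 fold change of 0.77 ± 0.20 (SE, edgeR adjusted p = 0.0106). EPB41L4A stood at 22.2 and 22.5 CPM in dex and at 9.42 and 13.6 CPM in etoh, with a log2 fold change of 0.96 ± 0.17 (edgeR adjusted p = 3.4e-04).

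Transcript 001 of EPB41L4A-AS1, which shares 1659 of its 2969 bases with EPB41L4A, had 97 and 100 reads in dex and 50 and 63 in etoh. Its other 3 transcripts, which share none, together had 13 and 19 reads in dex and 15 and 12 in etoh. The transcripts without overlap showed no separation of the groups. Their sum alone had a log2 fold change of 0.30 (edgeR adjusted p = 0.732), and with DESeq2 on all transcripts the gene was not called either (adjusted p = 0.0862).

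USP3-AS1 and LIMD1-AS1, both tail to tail with their hosts, were lower in dex. USP3 removes ubiquitin from histones, and LIMD1 is a LIM-domain scaffold protein. USP3-AS1, at chr15:63544247-63601589 on the minus strand, stood at 13.1 and 13.0 CPM in dex and at 18.9 and 21.0 CPM in etoh, with a log2 fold change of -0.60 ± 0.15 (SE, edgeR adjusted p = 0.0124). USP3 stood at 88.6 and 84.9 CPM in dex and at 119 and 111 CPM in etoh, with a log2 fold change of -0.39 ± 0.10 (edgeR adjusted p = 0.0176). In both genes the etoh libraries lay above the dex libraries. The call of USP3-AS1 was lost without etoh replicate 2, at -0.53 (edgeR adjusted p = 0.0715), and that of USP3 without dex replicate 2, at -0.35, and without etoh replicate 1, at -0.32. All USP3-AS1 reads were on transcripts that overlap opposite-strand exons, of USP3 and in part of FBXL22, which had at most 5 reads in any library.

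LIMD1-AS1, at chr3:45679043-45689134 on the minus strand, stood at 5.80 and 4.58 CPM in dex and at 11.5 and 7.99 CPM in etoh. The groups did not overlap, but the etoh libraries were spread, and the log2 fold change was -0.88 ± 0.23 (SE, edgeR adjusted p = 0.0144). Its call was lost without dex replicate 2, at -0.71 (edgeR adjusted p = 0.0656), and without etoh replicate 1, at -0.59 (edgeR adjusted p = 0.22). LIMD1 stood at 53.6 and 54.3 CPM in dex and at 72.2 and 75.2 CPM in etoh, with a log2 fold change of -0.43 ± 0.11 (edgeR adjusted p = 0.00938). All LIMD1-AS1 reads were on transcripts that overlap opposite-strand exons. SACM1L, another gene on the opposite strand, stood at 67.3 and 74.4 CPM in dex and at 70.8 and 70.6 CPM in etoh. It was not called (log2 fold change 0.02 ± 0.11, SE, edgeR adjusted p = 0.934). The 1 LIMD1 transcript that shares no exonic base stood at 8.85 and 8.80 CPM in dex and at 9.01 and 10.4 CPM in etoh, a log2 fold change of -0.13 that was not called (edgeR adjusted p = 0.747).

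HOXA-AS2 lies in the cluster of HOXA homeobox genes, which set position along the body axis, and its name gives no single host. It spans chr7:27107777-27134302 on the plus strand and stood at 4.58 and 3.86 CPM in dex and at 6.25 and 8.24 CPM in etoh. The dex libraries were the lower ones, with a log2 fold change of -0.77 ± 0.24 (SE, edgeR adjusted p = 0.0387). The call was lost without dex replicate 2, at -0.64 (edgeR adjusted p = 0.146), and without etoh replicate 2, at -0.56 (edgeR adjusted p = 0.272). Of its reads 79.4% were on transcripts that share bases with exons of HOXA3 or HOXA4. Those that share none, 4 transcripts, stood at 0.814 and 0.628 CPM in dex and at 1.95 and 1.43 CPM in etoh, so the lower level in dex was also seen there, at a log2 fold change of -1.19 that was not called (edgeR adjusted p = 0.106).

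HOXA3, looked up because its exons overlap HOXA-AS2, stood at 16.8 and 17.0 CPM in dex and at 27.4 and 35.6 CPM in etoh. Its log2 fold change was -0.89 ± 0.15 (SE, edgeR adjusted p = 1.9e-04), so its counts fell as those of HOXA-AS2 did. HOXA4 was near 1 CPM in every library and was not called. The other HOX cluster members were not called: HOXA-AS3 had a log2 fold change of 0.79 ± 0.36 (edgeR adjusted p = 0.184), HOXD-AS1 of -0.61 ± 0.31, HOXB-AS3 of -0.42 ± 0.29 and HOXB-AS4 of 0.46 ± 0.43. HOXA-AS2 and HOXA-AS3, both on the plus strand of the same cluster, thus had values of opposite sign.

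**Figure D3:**
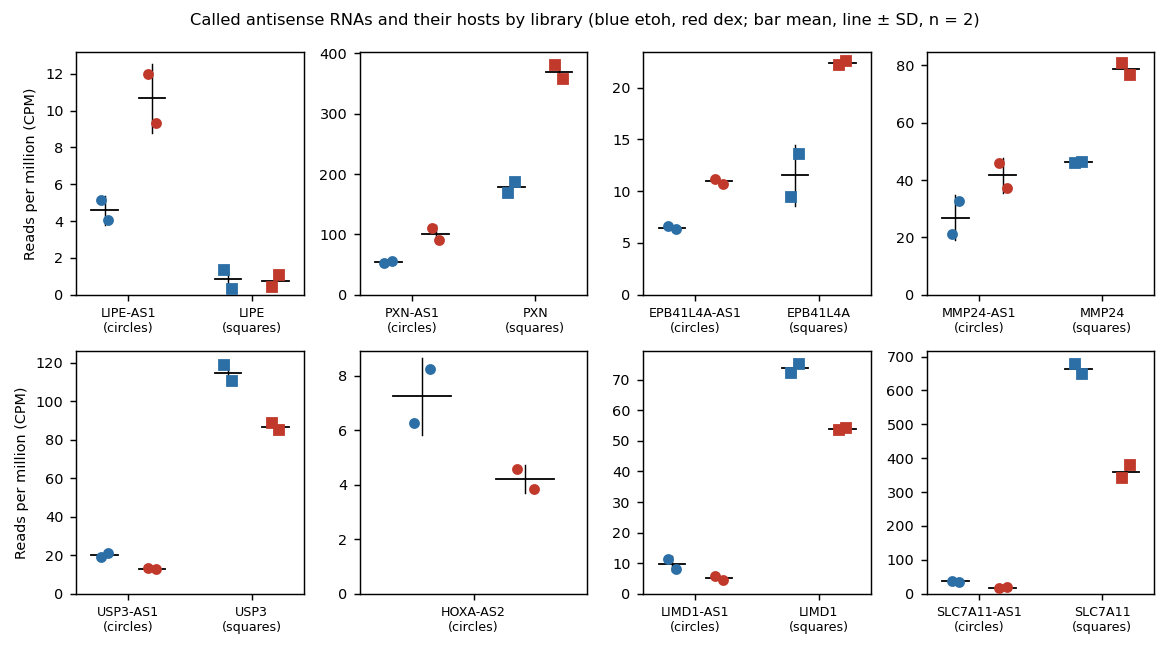
CPM in each library of the 8 called antisense RNAs (circles) and their hosts (squares), blue for etoh and red for dex, with the mean as a bar and ± SD as a line (n = 2). HOXA-AS2 has no single host. LIPE is close to 0, and in the other 6 pairs the counts of host and antisense RNA moved in the same direction.

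In all 6 pairs in which both genes were called, the direction was the same. The shared bases in these 6 pairs mean that a part of the counts of either gene can belong to the other. How large that part is was not tested. MMP24 and EPB41L4A have no listed transcript free of shared exonic bases, and that of USP3 held 0.21% of USP3 reads. Counted only on transcripts that share no exonic base with another gene, 76 members could be tested, 3 of the 8 among them, and edgeR called 0 of the 76, with 7 at an unadjusted p under 0.05. Among the 153 tested members that share exonic bases with their host 7 were called, and among the 49 that share none 0 were called by edgeR, with 6 of the 49 at an unadjusted p under 0.05. By position, 0 of 74 head-to-head members were called, again with 6 at an unadjusted p under 0.05. For members inside the host the count was 1 of 39, for those overlapping in another way 2 of 43, and for tail-to-tail members 4 of 45. These counts are to be read beside the 11.4% of all genes, and the difference between positions was not tested. Of all genes with under 200 reads, as most tested members had (139 of 213), 5.71% were called. The groups by position and by sharing were not split by abundance. Their counts thus cannot be read as a trait of a position or of sharing. An unadjusted p under 0.05 was seen in 3474 of the 14766 tested genes.

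**Figure D4:**
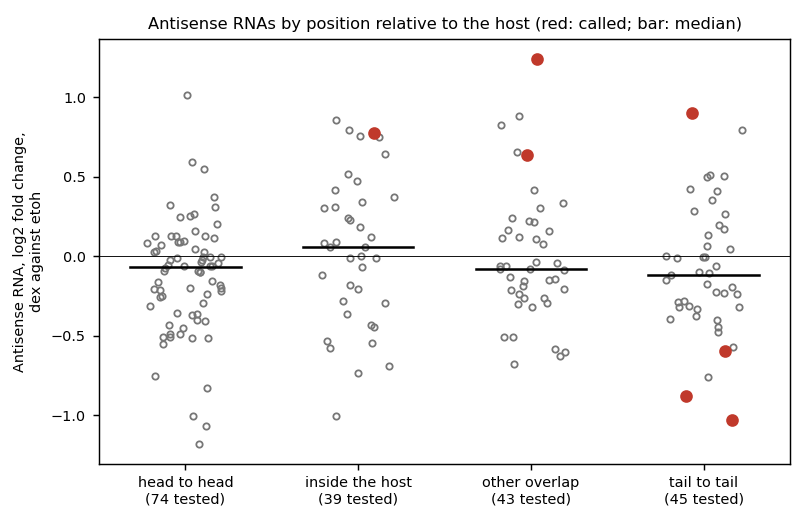
Log2 fold change (dex against etoh) of each tested antisense RNA by position relative to the host, with called ones in red and the median of each position as a bar. The 74 head-to-head members include none in red, and the 45 tail-to-tail members include 4.

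Most called hosts came without a called antisense RNA, but calls of antisense RNAs were fewer still beside uncalled hosts. In 189 pairs both genes were tested. The host was called in 29 of them, and in 23 of these the antisense RNA was not. The values of the antisense RNAs in those 23 pairs ran from -0.73 to 0.79 on the log2 scale, with a median SE of 0.37. The antisense value had the same sign as that of the host in 26 of the 29 pairs, in 19 of 21 that share exonic bases and in 7 of 8 that share none. Where the host was not called, the signs were the same in 81 of 160 pairs. The antisense RNA was called in 1 of those 160, LIPE-AS1, against 6 of the 29 pairs with a called host. That difference was not tested, and all 6 share exonic bases with the host.

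**Figure D5:**
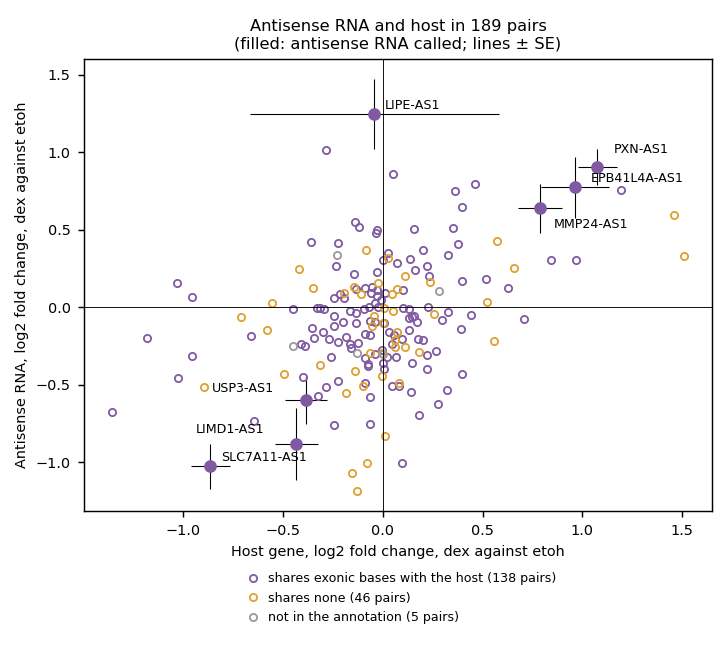
Log2 fold change of the antisense RNA (vertical) against that of its host (horizontal) in 189 pairs, coloured by whether they share exonic bases; filled points are called antisense RNAs, with lines of ± SE. Of the filled points 6 lie in the quadrants where the counts of both genes moved the same way, and LIPE-AS1 lies above a host near 0.

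For 5 called hosts the log2 fold change was 1 or more in size while the antisense RNA was not called. ZBED5, a zinc finger gene derived from a transposase, stood at 77.5 and 87.0 CPM in dex and at 183 and 194 CPM in etoh, with a log2 fold change of -1.18 ± 0.10 (SE, edgeR adjusted p = 2.3e-08). ZBED5-AS1, head to head with it and sharing 538 exonic bases, had a log2 fold change of -0.20 ± 0.21 (edgeR adjusted p = 0.615). The other 4 of these hosts were SERTAD4, which fell, and BAIAP2, NAV2 and FOXD2, which rose.

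BAIAP2, an adaptor protein of the actin cytoskeleton, stood at 42.4 and 35.4 CPM in dex and at 13.3 and 15.2 CPM in etoh (log2 fold change 1.46 ± 0.15, SE, edgeR adjusted p = 1.7e-07). BAIAP2-AS1, which shares no exonic base with it, stood at 5.70 and 6.55 CPM in dex and at 2.87 and 5.22 CPM in etoh. Both dex libraries were above both etoh libraries, but etoh replicate 2 was close, and the log2 fold change of 0.59 ± 0.27 was not called (edgeR adjusted p = 0.175). BAIAP2-AS1 is a head-to-head member and carries the name BAIAP2-DT in the newer annotation.

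NAV2, a cytoskeletal protein of growing neurites, rose by a log2 fold change of 1.20 ± 0.13 (SE, edgeR adjusted p = 3.7e-07), and NAV2-AS1, inside it, had a log2 fold change of 0.76 ± 0.38 (edgeR adjusted p = 0.244). LIFR, the receptor of leukemia inhibitory factor, rose by 0.97 ± 0.11 (SE, edgeR adjusted p = 1.7e-06), with LIFR-AS1 at 0.31 ± 0.45. FOXD2, a forkhead transcription factor, was called higher at 1.51 ± 0.44 (SE, edgeR adjusted p = 0.0261), and FOXD2-AS1, which does not overlap it, had 0.33 ± 0.37. These 3 antisense RNAs had values of the same sign as the hosts, each within 2 SE of 0.

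Among the called hosts that fell, AFAP1, which binds actin filaments, changed by a log2 fold change of -0.96 ± 0.11 (SE, edgeR adjusted p = 1.8e-06), and AFAP1-AS1 had 0.06 ± 0.37. MAP3K14, the kinase that starts non-canonical NF-kB signalling, changed by -0.95 ± 0.14 (SE, edgeR adjusted p = 4.2e-05), with MAP3K14-AS1 at -0.31 ± 0.28. MAFG, a small MAF protein that pairs with other leucine zipper factors, changed by -0.89 ± 0.12 (SE, edgeR adjusted p = 9.9e-06), with MAFG-AS1, head to head and without shared exonic bases, at -0.51 ± 0.32. Over all called hosts, the pairs of opposite sign were those of AFAP1, which fell, and of JHDM1D and ARHGEF26, which rose. In each the antisense value was smaller in size than its SE.

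Of the 10 most abundant antisense RNAs only PXN-AS1 passed the test. FGD5-AS1, at 312 and 317 CPM in dex and 312 and 303 CPM in etoh, had a log2 fold change of 0.05 ± 0.09 (SE, edgeR adjusted p = 0.812). Its host FGD5, a guanine nucleotide exchange factor, had 2 reads in 1 etoh library and 0 in the others and was not tested. OIP5-AS1, a conserved RNA known for binding a microRNA, stood at 157 and 189 CPM in dex and at 186 and 165 CPM in etoh, with overlapping groups and a log2 fold change of -0.004 ± 0.11 (edgeR adjusted p = 0.992). At these depths the SE was about 0.1, so a change of the size seen in PXN-AS1 would have been detectable.

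C17orf76-AS1, a host of small nucleolar RNAs, stood at 172 and 168 CPM in dex and at 210 and 193 CPM in etoh. Both dex libraries were lower, and the log2 fold change of -0.23 ± 0.10 (SE) was not called (edgeR adjusted p = 0.159). HNRNPU-AS1 was lower in both dex libraries as well, at 33.1 and 41.9 CPM against 47.6 and 46.4 CPM in etoh, with a log2 fold change of -0.30 ± 0.12 (edgeR adjusted p = 0.13). It was called without dex replicate 2, at -0.48. TPT1-AS1, VIM-AS1, PCBP1-AS1, WAC-AS1 and PAPPA-AS1 had log2 fold changes between -0.09 and 0.12, none of them called.

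The call of TMPO-AS1 depended on the libraries and the settings used. It lies head to head with TMPO, which encodes a protein of the nuclear lamina, and shares 713 exonic bases with it. TMPO-AS1 stood at 25.7 and 17.6 CPM in dex and at 10.04 and 19.5 CPM in etoh. The groups overlapped, and the log2 fold change was 0.55 ± 0.22 (SE, edgeR adjusted p = 0.12). Without etoh replicate 2 it was 1.11 and called (edgeR adjusted p = 8.6e-06), and without dex replicate 2 it was 0.81 and called (edgeR adjusted p = 0.00127). With all 4 libraries it was also called with no filter on low counts, at 0.55 (edgeR adjusted p = 0.0119), and with the replicate number as a block, at 0.57 (edgeR adjusted p = 0.018). TMPO itself had a log2 fold change of -0.14 and was not called.

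The other described antisense RNAs were not called. Those with the most reads among them, MAPKAPK5-AS1 at -0.31 ± 0.15 (SE), THAP9-AS1 at -0.20 ± 0.17, NNT-AS1 at -0.09 ± 0.17 and SBF2-AS1 at 0.13 ± 0.18 on the log2 scale, had values no more than about 2 SE from 0. LOXL1-AS1 stood at 3.56 and 1.71 CPM in dex and at 1.64 and 1.35 CPM in etoh, with a log2 fold change of 0.82 ± 0.40 (edgeR adjusted p = 0.216). Its dex replicate 1 was the high library, and the gene was called without dex replicate 2, at 1.29 (edgeR adjusted p = 0.0396). HAS2-AS1, EGFR-AS1, TTN-AS1 and LEF1-AS1 lay under 6 CPM in every library, and their log2 fold changes had SEs of 0.30 to 0.49.

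Per kilobase of exon, antisense RNAs were mostly below their hosts. Over the 204 pairs with a length for both genes, the antisense level in etoh was a median of 27.2% of the level of the host, with quartiles of 9.44% and 80.3%. In 43 pairs the antisense RNA was above the host, and in 7 of these the host had no read in etoh. Over the 184 of these pairs in which both genes were tested, which leaves out hosts with few reads, the median was 22.4% and the antisense RNA was above the host in 26. PXN-AS1 was at 96.5%, LIMD1-AS1 at 101% and EPB41L4A-AS1 at 144% of the level of the host, while SLC7A11-AS1 was at 8.82%, USP3-AS1 at 18.9% and MMP24-AS1 at 46.7%. By these counts, the pairs that moved together included antisense RNAs far below their hosts and level with them. The levels include reads over shared bases, which cannot be assigned to one gene or the other.

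Windows around the start sites of the members were searched for the 6-base half-site of the glucocorticoid receptor, since the treatment acts through that receptor. The windows, 250 bases before to 50 bases after each start, came from RefSeq on GRCh38.p14, in which 146 members matched with 197 windows, and the search covered AGAACA and its reverse complement TGTTCT, which are the same site read on the 2 strands. The half-site was in 14.8% of all 35116 windows and in 8.12% of the windows of members. Among the 7 called members with a window, which had 8 windows, it was in 1, that of HOXA-AS2, at bases 52 to 57. The window of HOXA-AS2 is printed with the half-site in capitals. Beside it stands the first of 2 windows of LIPE-AS1, the called member whose tested host was not called, and neither of these 2 windows holds the half-site.
HOXA-AS2, plus strand, chr7:27121669-27121968: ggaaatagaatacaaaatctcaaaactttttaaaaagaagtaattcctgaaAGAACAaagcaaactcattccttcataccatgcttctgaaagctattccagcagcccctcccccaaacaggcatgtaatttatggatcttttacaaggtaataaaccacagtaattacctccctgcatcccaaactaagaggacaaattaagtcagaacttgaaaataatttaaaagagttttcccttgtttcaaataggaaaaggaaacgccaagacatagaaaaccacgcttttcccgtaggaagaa
LIPE-AS1, plus strand, chr19:42396898-42397197: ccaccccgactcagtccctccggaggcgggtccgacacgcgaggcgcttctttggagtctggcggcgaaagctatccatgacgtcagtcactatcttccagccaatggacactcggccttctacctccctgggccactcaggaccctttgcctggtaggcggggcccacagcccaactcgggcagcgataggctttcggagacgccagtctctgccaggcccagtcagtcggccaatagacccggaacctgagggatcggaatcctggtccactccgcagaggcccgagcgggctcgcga
A match is a description of these letters only, and a window without one says nothing of receptor binding there or elsewhere.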

How the data were processed

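RNA of A549 cells was sequenced in 4 libraries, 2 of dex and 2 of etoh. The authors deposited raw counts per transcript, 1 file per library, and the tools named per the submitters' processing notes are Bowtie, CASAVA, DESeq2 and SAMtools. The sources used here do not give the alignment settings, the build, the annotation or any use of strand. Counts of all transcripts of a gene were summed. The row without a transcript name, which holds unaligned reads, was left out.

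edgeR 4.0.16 in R 4.3.3 kept genes by filterByExpr with a minimum count of 10, used TMM factors and tested dex against etoh two-sided over all 14766 kept genes, with a prior count of 0.125. The SE is the log2 fold change divided by the square root of the F statistic. CPM is scaled to aligned reads. The biological coefficient of variation was 8.08%. No 2 libraries were duplicates: chi-square per degree of freedom was 5.38 for the dex pair, 6.98 for the etoh pair and at least 15.2 for pairs across groups. Positions, exons and UTRs came from GENCODE 29. The fit was tested on simulated data.

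Named genes were every called member with its host, the 10 most abundant members, members on the list of described antisense RNAs, the 10 called hosts with the smallest p, and those next to the total of 40 reads. Members and lists were chosen with earlier results of these data known. DESeq2 1.42.0, limma-voom 3.58.1, other filters, transcript choices, a replicate block and leaving out each library were alternatives.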

Additional observations from a re-analysis of the deposited data

How the results depend on the processing

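The 8 called members were also called under DESeq2 size factors, library totals, no count filter, a minimum of 1 CPM in 2 libraries, limma-voom and the replicate block, and with transcripts holding a run of 30 A or T bases left out, the last chosen after seeing the data. None of the named values changed sign where it had been called. DESeq2 called 4 members and 1039 of all genes, losing EPB41L4A-AS1, LIMD1-AS1, HOXA-AS2 and USP3-AS1. With no count filter TMPO-AS1 and ZNF674-AS1 were called as well. With only the largest transcript of each gene 6 members were called: 5 of the 8, without LIMD1-AS1, HOXA-AS2 and USP3-AS1, and RASAL2-AS1. An adjusted p of 0.01 left 4 members and 995 of all genes. With only transcripts that share no exonic base with another gene, edgeR called 0 of 76 tested members, with 7 at an unadjusted p under 0.05, and 13 hosts, beside 1663 of all genes, where genes that are neither members nor hosts kept all transcripts. Only 3 of the 8 could be tested there, since the others have too few such reads. Without 1 library at a time, 6 to 11 members, 21 to 32 hosts and 1111 to 1967 of all genes were called, the lowest for all genes being without etoh replicate 1.

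The labels state no pairing of the libraries beyond a shared replicate number. The correlation of deviations from the group mean between libraries of the same number was -0.09 over all genes. With 2 libraries in each group it cannot exclude a pairing. With the replicate block 9 members, 26 hosts and 1560 of all genes were called, and the added member was TMPO-AS1. Leaving out 1 library leaves an arm with 1 sample, which is assumed to vary like the other group. Depth limits members under 200 reads most.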
